A study of Mus musculus with 50 samples.

Results

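Transcripts of 3 zona pellucida genes (Zp1, Zp2 and Zp3) and 2 oocyte growth factors (Gdf9 and Bmp15) were followed in mouse embryos from the late 1-cell to the late 2-cell stage, with or without injected Duxbl. The 5 genes were chosen by name, with earlier results of these data known. Counts of these genes that are set beside shares of all genes below are therefore descriptive. All 5 are among the 35750 genes of the deposited RNA sequencing table, 1 row each. Wild-type embryos of the C57BL6/J strain, from females aged 3 to 12 weeks, were injected as zygotes with mRNA at 200 ng/µl or left uninjected. Duxbl embryos received Duxbl-V5-2A-NLS-mCherry mRNA, which encodes the double homeobox protein Duxbl with a V5 tag and a separate nuclear mCherry. The mCherry embryos received NLS-mCherry mRNA. Collection was at late 1C (28 to 30 h after hCG, the hormone given to induce ovulation), early 2C (32 h) and late 2C (48 h), with 5 embryos pooled per tube. Uninjected and mCherry embryos gave 6 libraries at each stage, and Duxbl embryos gave 4 at late 1C, 5 at early 2C and 5 at late 2C.

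The zona pellucida is the glycoprotein coat that surrounds the egg and the early embryo. Growing oocytes synthesise it. ZP2 and ZP3 form the filaments of the coat, ZP1 crosslinks them, and ZP2 also carries a region that sperm bind. GDF9 and BMP15 are secreted proteins of the TGF-beta family by which the oocyte directs the growth and differentiation of the surrounding granulosa and cumulus cells. Transcripts of all 5 genes are made in the oocyte and carried into the zygote, and maternal mRNA of this kind is degraded in waves during oocyte maturation and around the activation of the embryo's own genome at the 2-cell stage.

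Levels are given as CPM, which here are deposited values relative to the scaled library total (per 1000000), and differences are on the log2(CPM + 1) scale with limma standard errors and p-values adjusted over all genes tested. An adjusted p under 0.05 is a call, and all tests were two-sided. Overlap between the libraries of different groups was read for the members only, and its share over all genes was not counted. Libraries held 12.04 to 27.0 M in deposited values, for an estimated depth of 13.1 to 40.7 M reads. The Duxbl1 row, in which the embryo's own RNA and the injected RNA cannot be told apart, was at 1410 to 4799 CPM in the Duxbl libraries and at 82.4 to 635 CPM in the others. Oocyte identity genes such as Nlrp5, Padi6 and Mos, 10 in all, were all present. Between early and late 2C, 9 of these 10 were called lower and 0 higher in uninjected embryos, against 26.6% lower of all genes. In Duxbl embryos 7 of the 10 were called lower and 0 higher between these stages. At late 2C, 7 were called higher and 0 lower in Duxbl than in mCherry embryos, against 26.8% higher of all genes. Their summed level at late 2C was 4479 to 5608 CPM in Duxbl and 1858 to 3309 CPM in mCherry embryos. Levels are relative to the other RNA of the library, and a lower level does not separate less RNA per embryo from fewer embryos that carry it. Because the cDNA kit primes on the poly(A) tail, loss of an mRNA and shortening of its tail cannot be told apart.

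The genes lie on 5 chromosomes of the mm39 genome. Zp1 (ENSMUSG00000024734) spans chr19:10891651-10897996 on the minus strand, Zp2 (ENSMUSG00000030911) chr7:119725995-119744514 on the minus strand and Zp3 (ENSMUSG00000004948) chr5:136008953-136017478 on the plus strand. Gdf9 (ENSMUSG00000018238) spans chr11:53321850-53328731 on the plus strand and Bmp15 (ENSMUSG00000023279) chrX:6226161-6232775 on the minus strand. No other gene of the table overlaps any of them, which matters because the libraries do not mark the strand.

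The 3′ ends are shown because stability and tail length of maternal mRNA are set largely in the 3′ untranslated region. In the GENCODE M21 annotation (build GRCm38), that region is 34 bases long in Zp1, 49 in Zp2 and 13 in Zp3, against a median of 788 bases over 20139 protein-coding genes with an annotated one. Only 0.417% of those genes have one as short as that of Zp3, 1.71% as short as that of Zp1 and 2.8% as short as that of Zp2. Gdf9 has 360 bases and Bmp15 has 1523. Zona transcripts have 12, 18 and 8 exons in the order Zp1, Zp2, Zp3, and both growth factors have 2. The last 30 bases of each annotated transcript, sense strand, with the polyadenylation hexamer AATAAA in capitals, are:
Zp1: actcAATAAAccattgtttgaaaactcctg
Zp2: gactgcagttaaactcttgtcttacatgtt
Zp3: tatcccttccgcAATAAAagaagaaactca
Gdf9: acggaagAATAAActgttgatggcataaat
Bmp15: agAATAAAttttcatttatgtgtgctttgc
The last 100 bases hold AATAAA once in each of the 5 transcripts, as in 62.7% of all genes with at least 1. In Zp2 it begins 38 bases from the end, outside the bases shown. In Zp3 the hexamer begins 18 bases from the end and the stop codon TAA begins 16 bases from the end, so that the hexamer contains the stop codon. ATTAAA, a weaker form of the hexamer, is in those of Zp1 alone (19.2% of all genes). TTTTAT, a form of the cytoplasmic polyadenylation element, is in the last 100 bases of Gdf9 (13% of all genes) and of no other member. TTTTAAT, another form (4.66% of genes), and the Pumilio motif TGTANATA (4.02%) are in none. All motifs were read on the sense strand. In the zona transcripts the last 100 bases reach into the coding sequence, so a motif there need not lie in the 3′ untranslated region. In Gdf9 and Bmp15 they cover only the end of that region.

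Promoters are shown for Bmp15 and Zp3, the 2 of the 5 members matched in the promoter table, as an example of a member that fell between early and late 2C in uninjected embryos and of the member that did not pass there. These are the 250 bases before the annotated start from RefSeq (build GRCm38.p6), chrX:6320725-6320974 on the minus strand for Bmp15 and chr5:135979855-135980104 on the plus strand for Zp3, 5′ to 3′, with CANNTG sites (the E-box bound by helix-loop-helix factors such as FIGLA, the oocyte factor needed for zona gene expression) in capitals. The promoters of Zp1, Zp2 and Gdf9 are not shown.
Bmp15: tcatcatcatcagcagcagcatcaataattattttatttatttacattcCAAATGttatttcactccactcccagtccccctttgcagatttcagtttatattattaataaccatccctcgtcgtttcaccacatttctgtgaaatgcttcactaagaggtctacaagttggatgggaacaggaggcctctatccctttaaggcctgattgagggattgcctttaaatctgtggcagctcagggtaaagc
Zp3: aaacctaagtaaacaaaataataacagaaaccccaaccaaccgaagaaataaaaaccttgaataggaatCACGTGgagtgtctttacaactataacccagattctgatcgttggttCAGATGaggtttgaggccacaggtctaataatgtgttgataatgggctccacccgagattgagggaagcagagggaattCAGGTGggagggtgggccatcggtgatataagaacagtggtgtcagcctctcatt
CANNTG reads the same on both strands. Bmp15 has 1 such site, CAAATG, which begins 201 bases before the start. Zp3 has 3, CACGTG at 181 bases, CAGATG at 134 and CAGGTG at 55. At least 1 CANNTG is in 66.2% of the 32851 windows of this length, CACGTG in 6.02% and CAGGTG, read on both strands, in 17.2%. The homeobox motif TAATTG, also read on both strands, is in neither promoter and in 7.17% of windows.

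Per kilobase of annotated transcript, Bmp15 stood highest at the start. In uninjected late 1C embryos, its mean was 894 CPM per kb, followed by Gdf9 (372), Zp3 (122), Zp2 (113) and Zp1 (57.8). In uninjected late 2C embryos, Bmp15 (91.8 CPM per kb), Gdf9 (89.2) and Zp3 (75.6) had come close together, with Zp2 at 26.2 and Zp1 at 24.8. In Duxbl late 2C embryos Bmp15 (547 CPM per kb) and Gdf9 (281) were again the highest, and Zp3, at 40.2, was below Zp2 (111) and Zp1 (54.2).

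The order of the 9 groups differed between Zp3 and the others. For Bmp15 the means of the 6 groups at late 1C and early 2C ran from 2871 ± 404 CPM (SD, n = 6, mCherry late 1C) to 2347 ± 328 CPM (SD, n = 5, Duxbl early 2C), with steps between neighbours smaller than their SD. Duxbl late 2C followed at 1673 ± 352 CPM, then mCherry late 2C at 303 ± 124 and uninjected late 2C at 281 ± 116 CPM, which differed by less than their SD. For Zp1, Zp2 and Gdf9 the Duxbl late 2C mean (106 ± 64.5, 246 ± 49.8 and 504 ± 74.6 CPM, SD, n = 5) stood in the fifth or the sixth place, among the early groups and within 1 SD of its neighbours. For Zp1 this place rests on library 4, at 220.3 CPM: the median of Duxbl late 2C, 83.8 CPM, is below the medians of all 6 early groups (87.1 to 107 CPM). For each of these genes the uninjected and mCherry late 2C groups were the lowest of the 9. For Zp3 the 3 late 1C groups were highest (138 to 161 CPM), followed by uninjected late 2C (median 105 CPM, SD 56.5) and mCherry late 2C (median 89.2 CPM, SD 43.9), the 3 early 2C groups (55.3 to 65.9 CPM) and Duxbl late 2C (53.2 ± 15.4 CPM, SD, n = 5), with overlap among the last 6.

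**Figure D1:**
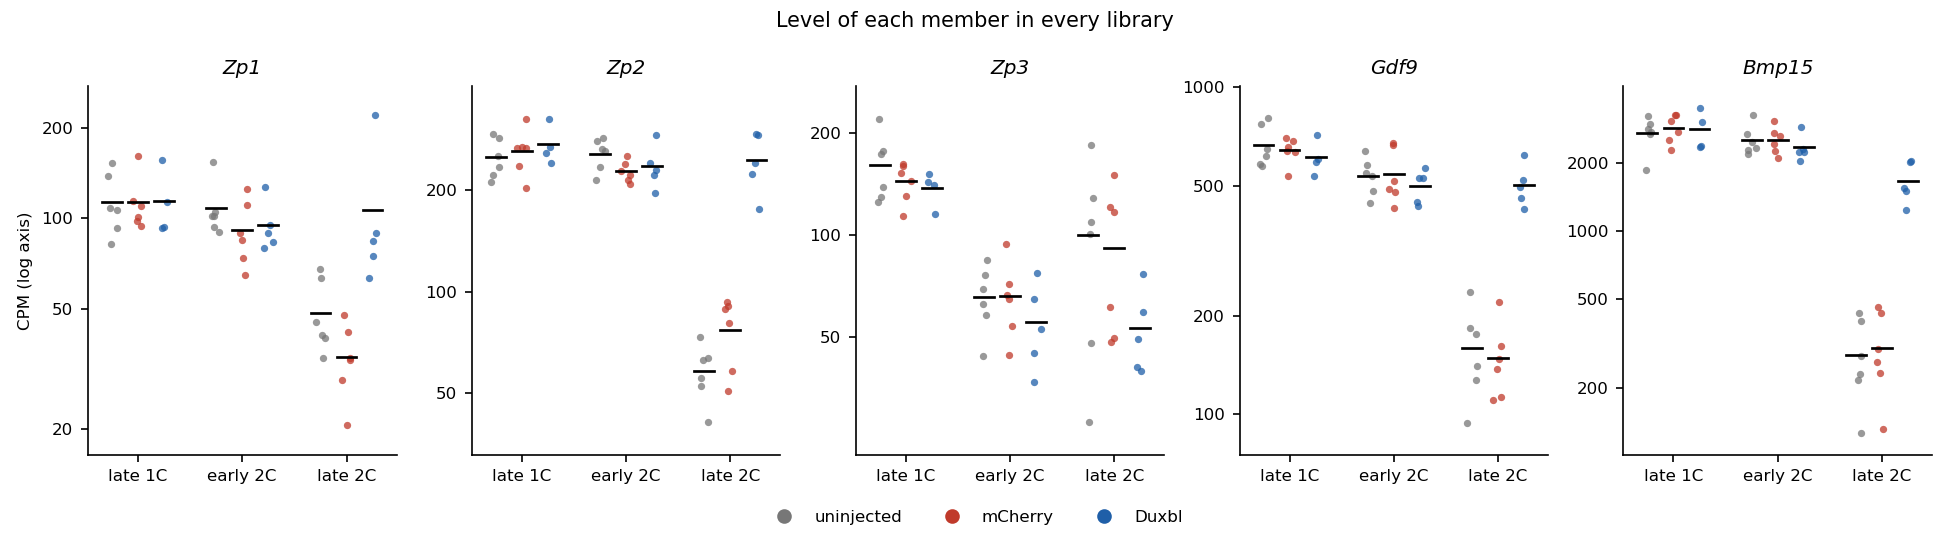
CPM of Zp1, Zp2, Zp3, Gdf9 and Bmp15 on log axes, 1 point per library (4 to 6 per group) and bars at the group means, by stage and treatment. Zp1, Zp2, Gdf9 and Bmp15 are low at late 2C in uninjected and mCherry embryos. In Duxbl embryos at late 2C, Zp1, Zp2 and Gdf9 are near their early 2C levels, and the Bmp15 mean is 71.3% of its early 2C mean. Zp3 falls earlier, between late 1C and early 2C.

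Between late 1C and early 2C, Zp3 was the member that fell, and it fell in all 3 treatments. In uninjected embryos Zp3, which encodes a filament protein, was at 126 CPM (lowest), 156 (median) and 221 (highest) at late 1C, and at 44.1, 65.9 and 84.4 CPM at early 2C. In mCherry embryos the lowest, median and highest were 114, 149 and 162 CPM at late 1C and 44.3, 65.7 and 94.4 CPM at early 2C. In Duxbl embryos the 4 late 1C libraries had 115, 141, 143 and 151 CPM, and the 5 early 2C libraries had 36.9, 44.9, 52.8, 64.6 and 77.5 CPM. In each treatment every late 1C library was above every early 2C library. The early 2C mean of Zp3 was 40.9% of the late 1C mean in uninjected, 45.7% in mCherry and 40.2% in Duxbl embryos. On the log2 scale Zp3 fell by 1.28 (SE 0.28, limma adjusted p = 0.00321) in uninjected embryos, by 1.15 (SE 0.28, adjusted p = 0.0205) in mCherry embryos and by 1.34 (SE 0.33, adjusted p = 0.0259) in Duxbl embryos. Over all genes, 1.81% were called lower in uninjected, 0.736% in mCherry and 0.785% in Duxbl embryos. The mCherry call was lost on leaving out library 3, 6 or 7 of late 1C or library 1 or 5 of early 2C (adjusted p 0.0503 to 0.0983). The Duxbl call was lost on leaving out any of the 4 late 1C libraries or library 4 or 5 of early 2C (adjusted p 0.0513 to 0.133). In those fits the log2 difference lay between -1.42 and -1.04. Without the libraries numbered 4 and 5 the Duxbl difference was -1.13 (adjusted p = 0.203).

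The other 4 members were not called between these stages. In uninjected embryos the log2 difference was -0.31 (SE 0.16, limma adjusted p = 0.482) for Gdf9, -0.10 (SE 0.21) for Bmp15, -0.06 (SE 0.22) for Zp1 and 0.04 (SE 0.15) for Zp2. In mCherry and Duxbl embryos their log2 differences lay between -0.31 and -0.17, also not called. Zp2, with the smallest difference in uninjected embryos, had a mean of 251 ± 34.1 CPM (SD, n = 6) at late 1C and 257 ± 27.8 CPM (SD, n = 6) at early 2C. Its early 2C mean was 87.3% of the late 1C mean in mCherry and 86.2% in Duxbl embryos. For Gdf9 in uninjected embryos it was 80.5%.

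Between early and late 2C the pattern turned over. Zp1, Zp2, Gdf9 and Bmp15 fell in uninjected embryos, and Zp3 was not called. The median difference of the 5 members was -1.79 log2 against 0.02 over all genes, and 4 of the 5 were called lower, against 26.6% of all genes. In mCherry embryos 4 of the 5 were likewise called lower, against 26.7% of all genes.

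Bmp15, the growth factor encoded on the X chromosome, had the largest difference of the 5. It was at 2205 CPM (lowest), 2411 (median) and 3262 (highest) at early 2C in uninjected embryos and at 127, 255 and 434 CPM at late 2C. Every late 2C library was below every early 2C library. The late 2C mean was 11.04% of the early 2C mean, a log2 difference of -3.27 (SE 0.21, limma adjusted p = 3.65e-19). In mCherry embryos Bmp15 went from 2117, 2537 and 3080 CPM to 131, 281 and 461 CPM, to 11.9% of the early mean. Its log2 difference there was -3.17 (SE 0.21, adjusted p = 1.41e-18).

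Gdf9, which encodes the partner of BMP15 in signalling to cumulus cells, fell less. It was at 443, 541 and 637 CPM (lowest, median and highest) at early 2C and at 94.2, 158 and 237 CPM at late 2C in uninjected embryos. The 2 sets of libraries did not overlap, and the late mean was 29.8% of the early one. The log2 difference was -1.79 (SE 0.16, limma adjusted p = 2.29e-14). In mCherry embryos Gdf9 went from 428, 503 and 677 CPM to 111, 143 and 220.1 CPM, a log2 difference of -1.88 (SE 0.16, adjusted p = 5.09e-15).

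Zp2, which encodes the sperm-binding zona protein, was at 214, 263 and 286 CPM at early 2C and at 41.0, 59.0 and 73.4 CPM at late 2C in uninjected embryos. Every late library was below every early one, and the late mean was 22.6% of the early mean. The log2 difference was -2.14 (SE 0.15, limma adjusted p = 7.42e-18). In mCherry embryos Zp2 went from 209, 226 and 253 CPM to 50.9, 84.8 and 93.2 CPM, to 33.8% of the early mean. The log2 difference there was -1.59 (SE 0.15, adjusted p = 2.08e-13).

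Zp1, which encodes the crosslinker, had the smallest called fall. It was at 90.2, 102 and 154 CPM at early 2C and at 34.4, 43.0 and 68.1 CPM at late 2C in uninjected embryos, without overlap. The late mean was 45.1% of the early mean, and the log2 difference was -1.15 (SE 0.22, limma adjusted p = 1.2e-05). In mCherry embryos Zp1 went from 64.9, 87.1 and 125 CPM to 20.5, 34.1 and 47.8 CPM, a log2 difference of -1.39 (SE 0.22, adjusted p = 3.53e-07).

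Zp3 was spread widely at late 2C. The 6 uninjected libraries, numbered 1, 3, 4, 5, 6 and 7 in the labels, had 109, 185, 48.2, 28.1, 129 and 101 CPM in that order, against 44.1 to 84.4 CPM at early 2C. The mCherry libraries of the same numbers had 117, 61.2, 49.6, 48.3, 121 and 151 CPM, against 44.3 to 94.4 CPM at early 2C. In both treatments some late 2C libraries were above and some within or below the early 2C range, so the stages overlapped. The late mean was 152% of the early mean in uninjected and 139% in mCherry embryos. The log2 difference was 0.38 (SE 0.28, limma adjusted p = 0.256) and 0.36 (SE 0.28, adjusted p = 0.289), not called in either. These results depended on the scaling and, in uninjected embryos, on 1 library. In uninjected embryos with library totals alone the difference was 0.78 (adjusted p = 0.00855), with median-of-ratios size factors 0.71 (adjusted p = 0.0215), and without library 5 of uninjected late 2C 0.69 (adjusted p = 0.0199), each called higher. On the deposited scale it was 0.20 (adjusted p = 0.576). In mCherry embryos it was called higher with library totals alone (0.81, adjusted p = 0.00633), with median-of-ratios size factors (0.72, adjusted p = 0.0194) and without the libraries numbered 4 and 5 (0.64, adjusted p = 0.0273), and it was 0.16 (adjusted p = 0.664) on the deposited scale.

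**Figure D2:**
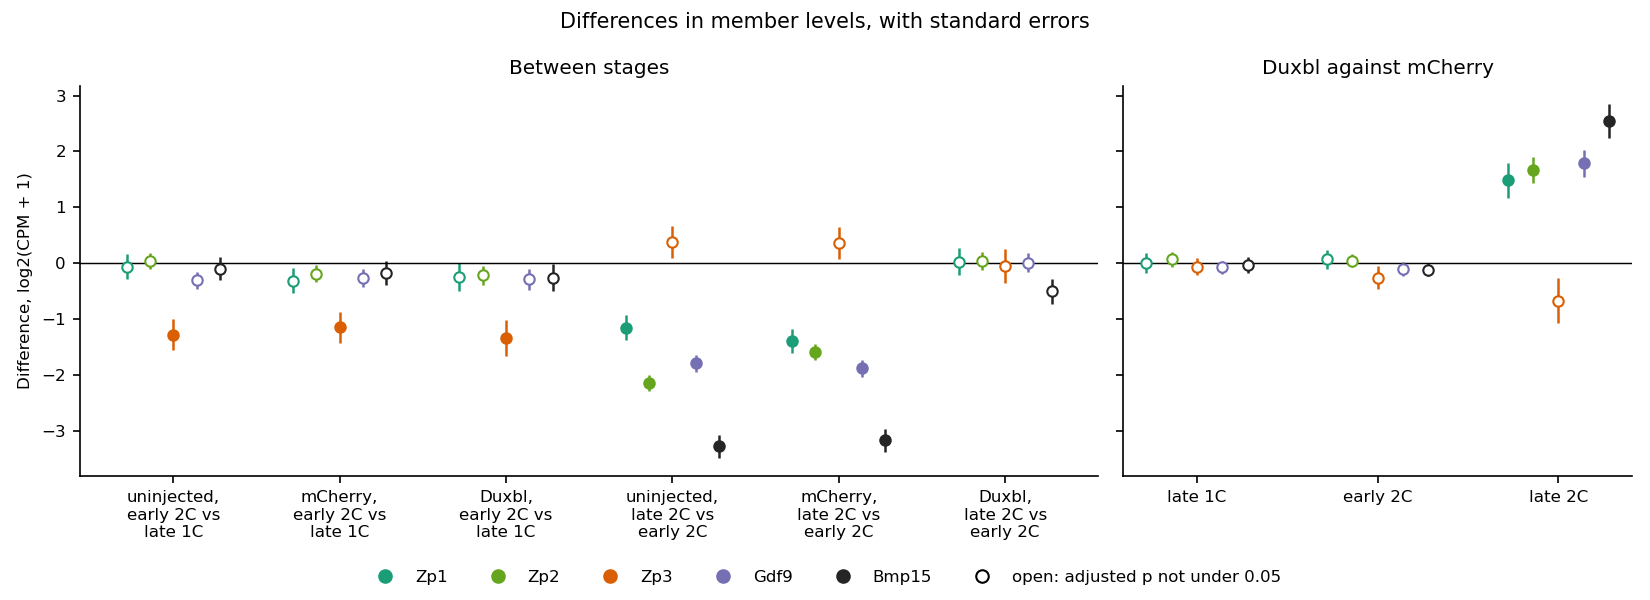
Log2 differences in level between successive stages within each treatment (left) and between Duxbl and mCherry embryos at each stage (right), with bars for the standard error and filled points where the limma adjusted p was under 0.05. Zp3 is the only filled point from late 1C to early 2C and is open in every late 2C comparison, where Zp1, Zp2, Gdf9 and Bmp15 are filled and negative in uninjected and mCherry embryos and open in Duxbl embryos.

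In Duxbl embryos no member was called between early and late 2C, although 39.2% of all genes were called in one direction or the other. The 5 Duxbl libraries at late 2C are given here in the order of their numbers, 1, 3, 4, 6 and 7, and those at early 2C in the order 3, 4, 5, 6 and 7. Gdf9 was at 567.5, 435, 527, 527 and 447 CPM at early 2C and at 426, 519, 621, 497 and 458 CPM at late 2C. The ranges were nearly the same, and the log2 difference was 0.01 (SE 0.17, limma adjusted p = 0.992). Zp2 was at 291, 229, 222, 242 and 197 CPM at early 2C and at 295, 223, 293, 240.5 and 176 CPM at late 2C. Its log2 difference was 0.04 (SE 0.16, adjusted p = 0.881). The late 2C mean was 101% of the early one for Gdf9 and 104% for Zp2.

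Zp1 in Duxbl embryos was at 127, 83.3, 89.5, 79.9 and 95.3 CPM at early 2C and at 83.8, 74.9, 220.3, 63.4 and 89.4 CPM at late 2C. The value of library 4 at late 2C stood far above the rest, and the log2 difference was 0.03 (SE 0.24, limma adjusted p = 0.962). Bmp15 was at 2239, 2040, 2906, 2250 and 2302 CPM at early 2C and at 1239, 1509, 1545, 2051 and 2020 CPM at late 2C. The highest late value was just above the lowest early value, and the late mean was 71.3% of the early mean. The log2 difference of -0.50 (SE 0.23, adjusted p = 0.0744) was not called, but it was called with voom weights (-0.50, adjusted p = 0.014) and on the deposited scale (-0.64). Zp3 in Duxbl embryos had 76.8, 49.3, 59.5, 39.8 and 40.7 CPM at late 2C, inside or near its early 2C range, and its log2 difference was -0.05 (SE 0.31, adjusted p = 0.932).

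Duxbl was compared with mCherry embryos, the control for injection, at each stage. No member was called at late 1C, where 0.0193% of all genes were, nor at early 2C, where 0.42% were. The log2 differences at late 1C ran from -0.07 (Gdf9, SE 0.12) to 0.07 (Zp2, SE 0.13) and those at early 2C from -0.26 (Zp3, SE 0.21) to 0.07 (Zp1, SE 0.18). At late 2C, 4 of the 5 members were called higher in Duxbl embryos, against 26.8% of all genes. The median difference of the 5 was 1.67 log2, and that of all genes was -0.05.

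Bmp15 had the largest difference at late 2C, with 1239 to 2051 CPM in Duxbl and 131 to 461 CPM in mCherry embryos. The ratio of means was 5.52, and the log2 difference was 2.55 (SE 0.30, limma adjusted p = 3.69e-07). Gdf9 was at 426 to 621 CPM in Duxbl and 111 to 220.1 CPM in mCherry embryos, a 3.39-fold difference of means and 1.78 on the log2 scale (SE 0.23, adjusted p = 1.24e-06). For Zp2, at 176 to 295 against 50.9 to 93.2 CPM, the ratio of means was 3.19 and the log2 difference 1.67 (SE 0.23, adjusted p = 2.88e-06). In each of these genes every Duxbl library was above every mCherry and every uninjected library. How many of all genes were separated in this way was not counted.

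Zp1 was at 63.4 to 220.3 CPM in Duxbl and 20.5 to 47.8 CPM in mCherry embryos, without overlap. The log2 difference was 1.48 (SE 0.31, limma adjusted p = 0.000328). Its lowest Duxbl library lay within the uninjected range of 34.4 to 68.1 CPM. Against uninjected embryos the Zp1 difference was 1.00 (adjusted p = 0.00871), and without the libraries numbered 4 and 5 the difference from mCherry embryos was 1.02 (adjusted p = 0.00564).

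Zp3 was the exception. Its 5 Duxbl libraries, at 39.8 to 76.8 CPM, overlapped with the 6 mCherry libraries at 48.3 to 151 CPM. The ratio of means was 0.582, and the log2 difference of -0.67 (SE 0.41, limma adjusted p = 0.166) was not called. It was called lower in Duxbl embryos with library totals alone (-0.99, adjusted p = 0.0222), with a replicate block (-0.90, adjusted p = 0.0288), with all 9 groups in 1 fit (-0.67, adjusted p = 0.048) and without the libraries numbered 4 and 5 (-1.09, adjusted p = 0.00668).

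Whether the Duxbl difference itself changed from early to late 2C was tested in the fit of all 9 groups. It grew by 2.66 log2 for Bmp15 (SE 0.31, limma adjusted p = 6.7e-10), 1.89 for Gdf9 (SE 0.23, adjusted p = 3.03e-09), 1.63 for Zp2 (SE 0.22, adjusted p = 2.48e-08) and 1.42 for Zp1 (SE 0.33, adjusted p = 0.000352). These 4 of 5 compare with 21.9% of all genes called in that direction. For Zp3 the change was -0.41 (SE 0.42, adjusted p = 0.449). No member was called between late 1C and early 2C, where 0.00347% of all genes were.

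The mCherry and uninjected embryos were compared to see what injection alone did. No member was called at any stage, and limma called 0 genes in all at each stage, 0% of those tested. Genes with an unadjusted p under 0.05 numbered 564, 781 and 383. The member differences at late 2C were -0.48 (SE 0.30) for Zp1, 0.39 (SE 0.22) for Zp2, -0.03 (SE 0.39) for Zp3, -0.09 (SE 0.22) for Gdf9 and 0.11 (SE 0.29) for Bmp15, in log2. With voom weights limma called 0 genes at each stage as well, and with all 9 groups in 1 fit there were 40 calls at late 2C and 1 at early 2C, none of them a member.

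Markers of other sources of RNA and of the embryo's own genome activation were read in the same libraries. The summed level of 14 measured cumulus and granulosa markers at late 2C was 39.8 to 64.8 CPM in Duxbl embryos, 17.6 to 43.8 CPM in mCherry and 16.0 to 41.6 CPM in uninjected embryos. It was 61.7 to 143 CPM at the earlier stages over all treatments. Of these markers Inha was listed at 0 in every mCherry and Duxbl late 2C library. The aromatase gene Cyp19a1 was the largest of these in Duxbl late 2C embryos, at 18.2 ± 14.6 CPM (SD, n = 5). The 7 oviduct markers summed to 51.5 to 189 CPM at late 2C and the 7 sperm markers to 1.85 to 31.6 CPM, with overlap between treatments. At the earlier stages they summed to 3.80 to 31.4 and 13.6 to 32.1 CPM. Single markers differed between Duxbl and mCherry embryos at late 2C. Of 8 tested cumulus and granulosa markers 3 were called higher and 1 lower (list median 0.90 log2, against -0.05 over all genes). Of 5 tested oviduct markers 2 were called higher and 1 lower, and of 4 tested sperm markers 1 higher and 3 lower. Over all genes 26.8% were called higher and 29.1% lower. The 4 measured blood markers summed to 0 to 13.1 CPM in Duxbl, 25.3 to 41.7 CPM in mCherry and 16.6 to 57.4 CPM in uninjected late 2C embryos, so Duxbl embryos lay below both. At the earlier stages these blood markers summed to 0.262 to 5.68 CPM over all treatments. The haemoglobin genes Hba-a1 (log2 difference from mCherry embryos -3.10) and Hba-a2 (-2.99), the 2 of them that were tested, were called lower, while Alas2 and Ptprc were near 0 in all 3 treatments. Genome activation markers such as Zscan4d and Zfp352, 5 in all, summed to 15.2 to 139 CPM in Duxbl, 1032 to 2214 CPM in mCherry and 691 to 3208 CPM in uninjected late 2C embryos. All 5 were called lower in Duxbl than in mCherry embryos at late 2C. The part of any of these in the member differences was not tested.

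Ratios between 2 members within a library depend little on how the library is scaled, through the 1 CPM added to each value. They were compared with exact permutation tests, adjusted over the 10 pairs. Between early and late 2C in uninjected embryos all 10 ratios changed, with adjusted p between 0.00309 and 0.0216. The 10 ratios are formed from 5 genes and are not independent, and ratios of other gene pairs were not tested. The ratio of Zp3 to Bmp15 rose by 3.66 log2, from -5.27 ± 0.44 to -1.61 ± 1.37 (SD, n = 6 each, exact p = 0.00216, the smallest that 6 against 6 can give). The ratio of Zp2 to Zp3 went from 1.97 ± 0.43 to -0.55 ± 1.22 log2, so that the transcripts of the 2 filament proteins changed order in mean. Gdf9 to Bmp15 rose by 1.48 log2 (adjusted exact p = 0.00309) without overlap, which means that the 2 growth factors fell to different extents. The smallest change was that of Zp2 to Gdf9, -0.35 log2 (adjusted exact p = 0.0192).

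**Figure D3:**
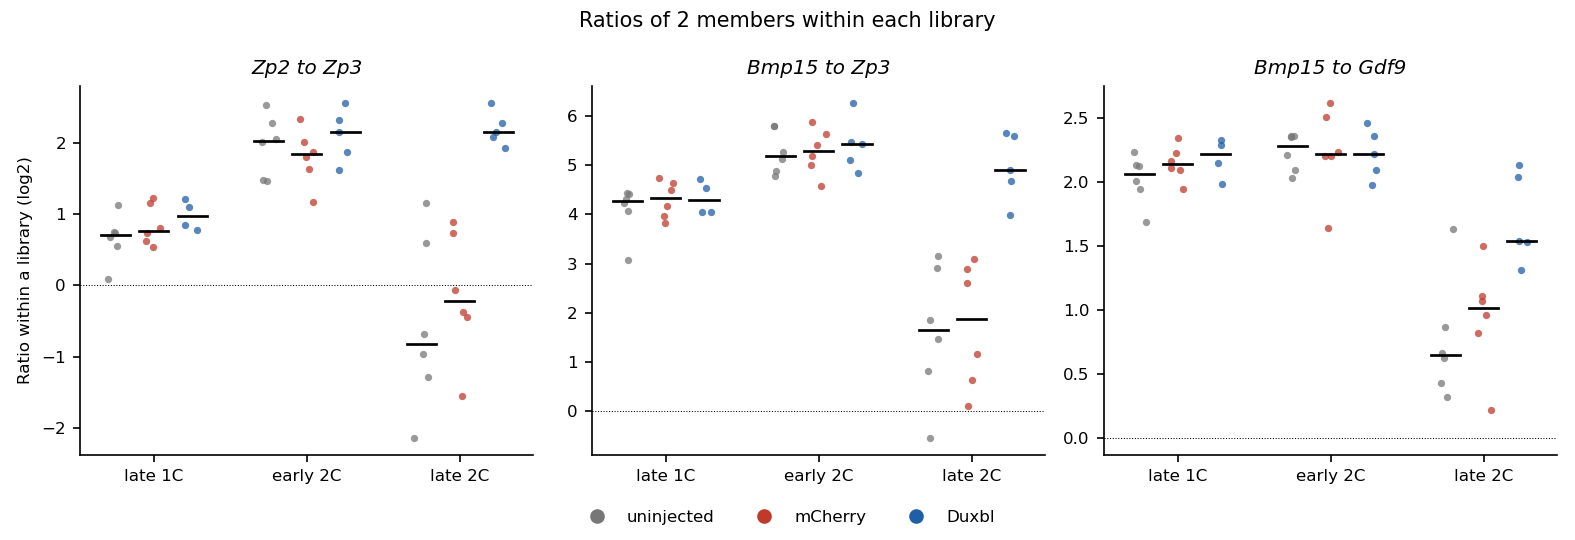
Log2 ratios of Zp2 to Zp3, Bmp15 to Zp3 and Bmp15 to Gdf9 within each library, 1 point per library with bars at group medians, by stage and treatment; the dotted line marks equal levels. At late 2C the Zp2 to Zp3 ratio is 1.93 to 2.57 in Duxbl embryos, -1.55 to 0.90 in mCherry embryos and -2.14 to 1.16 in uninjected embryos.

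At late 2C all 4 ratios with Zp3, which have that gene in common, separated Duxbl from mCherry embryos without overlap. The ratio to Zp3 was higher in Duxbl embryos by 2.15 log2 for Zp1 and 2.34 for Zp2, and the ratio of Zp3 to Gdf9 differed by -2.45 and that of Zp3 to Bmp15 by -3.22, each with an exact p of 0.00433, the smallest that 5 against 6 can give, and an adjusted p of 0.0108. These 4 passed with a pseudocount of 0.1 and on leaving out each library in turn. The ratio of Gdf9 to Bmp15 was lower in Duxbl embryos by a difference of -0.76 log2 (exact p = 0.00866, adjusted p = 0.0173). The other ratios did not pass: Zp1 to Zp2 differed by -0.19, Zp1 to Gdf9 by -0.30, Zp2 to Gdf9 by -0.11, Zp2 to Bmp15 by -0.88 (adjusted exact p = 0.105) and Zp1 to Bmp15 by -1.06 (adjusted exact p = 0.0938).

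Across all 50 libraries Gdf9 and Bmp15 followed each other most closely, with a Pearson r of 0.97 between their log2 levels. Zp2 had an r of 0.95 with Gdf9 and 0.93 with Bmp15, and Zp1 had 0.87 with Gdf9 and 0.83 with Zp2. Zp3 had an r of only 0.03 to 0.19 with any other member. These values follow the stages. Within groups, after subtracting group means, r was 0.63 for Gdf9 and Bmp15, 0.50 for Zp2 and Gdf9 and -0.51 for Zp3 and Bmp15. The points share library depth and pool of embryos, and the correlations are descriptive.

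The libraries carry 1 of 6 numbers, 1, 3, 4, 5, 6 or 7, and the labels do not say what a number stands for. Zp3 was below its group mean in the library numbered 5 in all 8 groups that have one, and was the lowest of its group in 7 of them, with a mean deviation of -0.59 log2. The deviation was between -0.25 and -0.32 at late 1C, between -0.54 and -0.52 at early 2C, -1.56 in uninjected late 2C and -0.76 in mCherry late 2C embryos. At late 2C the library numbered 4 was also low in uninjected (48.2 CPM) and mCherry embryos (49.6 CPM). In both groups the libraries numbered 4 and 5 had the lowest deposited totals and the highest scaling factors. The totals were 16.25 and 12.04 M in uninjected and 13.28 and 12.76 M in mCherry embryos. The factors were 1.37 and 1.58, and 1.43 and 1.49. Duxbl late 2C embryos have a library numbered 4 (59.5 CPM) and none numbered 5.

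Zp2 went with another number. It was the highest of its group in the library numbered 4 in 7 of 9 groups, with a mean deviation of 0.23 log2. The library numbered 4 was also the highest in 5 of 9 groups for Zp1 and for Gdf9 and in 4 of 9 for Bmp15. The cause of these deviations was not tested.

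**Figure D4:**
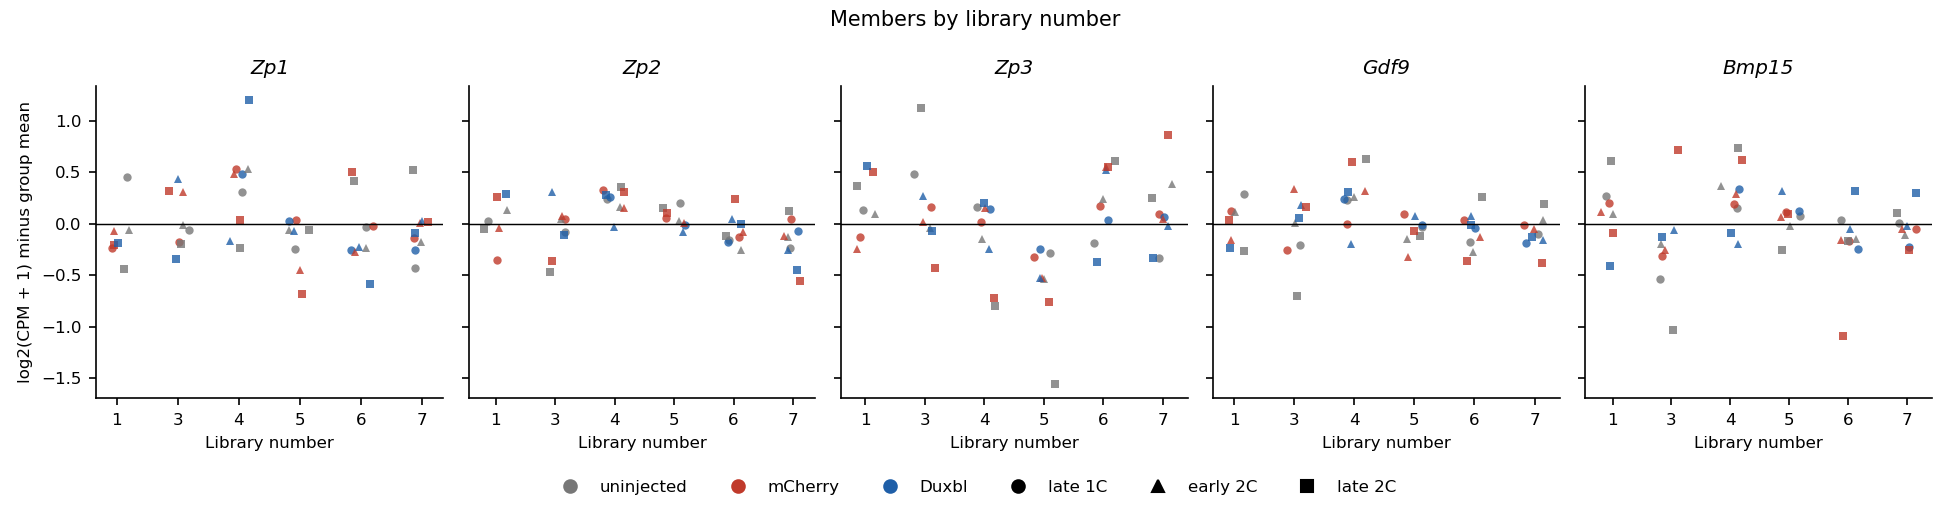
Deviation of each library from its group mean in log2(CPM + 1), by library number, for each member; colours mark treatments and shapes mark stages. For Zp3 all 8 points of number 5 are below 0, reaching -1.56, and for Zp2 8 of the 9 points of number 4 are above 0.

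The 3 genes outside the members most like each of them were found by Pearson r of log2(CPM + 1) over all 50 libraries, among 13006 genes with a mean of at least 10 CPM in some group, with the 5 members themselves left out of the search. For Bmp15 they were Pla2g4c (r = 0.988), Gm36480 (0.985) and Gm50056 (0.984), and for Gdf9 they were Meis2 (0.971), Grm4 (0.967) and Eif4e1b (0.962), an oocyte form of the cap-binding protein. Those for Zp2 were Klf7 (0.959), Stard7 (0.954) and Dpysl3 (0.951), and those for Zp1 were Bcl2l1 (0.873), Bnc2 (0.870) and Tuba3a (0.868). For Zp3 they were Smu1 (0.890), Rnf17 (0.872) and Pdap1 (0.860). No gene stood among the 3 of more than 1 member.

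Genes that work beside the members were read from 3 lists, also chosen with earlier results of these data known. Of 14 zona partners and egg surface genes, 10 were called lower and 3 higher between early and late 2C in uninjected embryos, with a median of -2.25 log2, against 26.6% lower and 30.3% higher of all genes. The largest falls among those named by rule were in Gja4, the gap junction protein of the oocyte (log2 difference -5.29), and Izumo1r, the egg receptor for the sperm protein IZUMO1 (-5.20). The oocyte-secreted protein genes Oosp2 (-2.95) and Oosp3 (-2.61) fell less. At late 2C, 9 of the 14 were called higher and 1 lower in Duxbl than in mCherry embryos, with a median of 1.65 log2, against 26.8% higher and 29.1% lower of all genes. Oosp1 was at 1523 ± 285 CPM (SD, n = 5) in Duxbl and 483 ± 81.7 CPM (SD, n = 6) in mCherry embryos, and Oosp3 at 353 ± 126 against 96.0 ± 31.7 CPM. Izumo1r was higher too, at 51.3 ± 10.2 against 17.0 ± 11.4 CPM, but far below the 407 ± 61.9 CPM (SD, n = 6) of uninjected early 2C embryos. Ovgp1, an oviduct glycoprotein that binds the zona, was at 52.1 ± 28.8 against 5.82 ± 3.36 CPM and at only 1.5 ± 1.02 CPM in uninjected early 2C embryos.

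Of 16 oocyte transcription factors and mRNA storage genes, 12 were called lower and 3 higher between early and late 2C in uninjected embryos (median -1.86 log2), against 26.6% lower and 30.3% higher of all genes. Nobox, a homeobox factor that activates Gdf9 and Bmp15 in oocytes, fell from 414 ± 124 to 18.2 ± 4.33 CPM (SD, n = 6 each), Eif4e1b from 315 ± 24.3 to 24.7 ± 12.3 CPM, and Tbpl2, an oocyte TATA-binding factor, from 69.8 ± 8.11 to 3.59 ± 2.24 CPM. Figla, the zona gene activator, was at 1.87 ± 0.57 CPM at early 2C and was not called. At late 2C, 7 of the 16 were called higher and 2 lower in Duxbl than in mCherry embryos (median 0.65 log2), against 26.8% higher and 29.1% lower of all genes. Ybx2, which stores maternal mRNA, was at 126 ± 34.0 CPM (SD, n = 5) in Duxbl and 24.5 ± 4.11 CPM (SD, n = 6) in mCherry embryos. Tbpl2 was at 49.98 ± 35.0 against 4.27 ± 2.49 CPM and Eif4e1b at 168 ± 42.1 against 32.7 ± 13.9 CPM. Ddx6, a helicase of mRNA storage granules, was called lower in Duxbl embryos, at 16.3 ± 6.17 against 61.9 ± 20.4 CPM (log2 difference -1.88, limma adjusted p = 2.01e-05). Nobox was at 57.8 ± 11.4 against 21.1 ± 17.0 CPM, well below its early 2C level.

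Of the receptors, processing enzymes and signalling genes of the growth factors, 33 were tested between stages, and 14 were called lower and 10 higher in uninjected embryos (median -0.30 log2), against 26.6% lower and 30.3% higher of all genes, so the share higher was that of the background. Bmpr1b, a type I receptor of this pathway, fell from 106 ± 25.6 to 23.7 ± 9.03 CPM (SD, n = 6 each), while Id1, a target of BMP signalling, rose from 5.94 ± 1.05 to 86.9 ± 43.8 CPM. At late 2C 31 were tested, and 13 were called higher and 6 lower in Duxbl than in mCherry embryos (median 0.69 log2), against 26.8% higher and 29.1% lower of all genes. Id1 was at 10.3 ± 7.0 CPM (SD, n = 5) in Duxbl and 49.3 ± 14.2 CPM (SD, n = 6) in mCherry embryos, and Id3, another such target, at 2.78 ± 4.27 against 62.7 ± 18.3 CPM. Id2, of the same family, went the other way, at 433 ± 168 against 199 ± 106 CPM (log2 difference 1.22, limma adjusted p = 0.00419). Fst, which encodes the ligand-binding inhibitor follistatin, was at 30.5 ± 19.7 against 1.26 ± 1.14 CPM. The type II receptor of both growth factors, Bmpr2, was at 179 ± 46.8 against 79.5 ± 12.4 CPM. Bmpr2, Id2, Figla, and Nobox and Izumo1r in Duxbl embryos, fall outside the rule for named genes and were chosen after their values were seen.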

How the data were processed

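The members and gene lists were chosen with earlier results of these data known. Per the labels' protocols, cDNA came from a SMART-Seq v4 kit and libraries from a Nextera XT kit, which does not mark strand, sequenced as paired reads. The submitters' processing notes name the mm39 build and, without roles, DESeq2 1.36.0, DESeq, STAR 2.7.10a, Trimmomatic 0.39, featureCounts 2.0.4 and Picard 3.0.0. The deposited table holds whole numbers for 35750 genes in 50 libraries and was treated as a score, because small values are spaced 0.554 to 1.98 apart depending on the library, as scaled and rounded read numbers are. For that reason the count tests that had been planned (edgeR, DESeq2) were not run. No gene had a maximum under 6, no mitochondrially encoded gene was listed, and no 2 libraries were identical.

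Values were scaled by trimmed-mean-of-M factors (30% and 5% trimmed) over all libraries to CPM, and 1 CPM was added before log2, which understates changes of low genes. Genes reaching a value of 10 in a number of libraries equal to the smallest group size were tested with limma 3.58.1 (R 4.3.3, trended and robust variance). Each stage was fitted with its 3 groups, and stage changes and differences of effects with all 9. Adjustment was Benjamini-Hochberg over all genes tested. Ratios used exact permutation tests in scipy 1.17.1. The procedure was checked on simulated data. Replicates are separate tubes. The labels do not say whether tubes came from separate matings, so p-values measure the spread between tubes. Same-numbered libraries of Duxbl and mCherry late 1C deviated together in all 4 pairs (r 0.18 to 0.31), so for this comparison the block result was considered, and it changed no member call. In the other comparisons at least 1 pair had r under 0.1, so the numbers were not taken to pair the libraries, although the mean r of same-numbered libraries was up to 0.20, against about -0.04 for other numbers. Named genes were the members, the 3 most alike genes outside the members and, from each list, up to 4 called genes with the smallest adjusted p. Alternatives were other pseudocounts (0.1 and 5), no filter, other scalings, voom weights, a replicate block, other sets of groups and each library left out. Leaving out libraries numbered 4 and 5 was added after the data were seen.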

Additional observations from a re-analysis of the deposited data

Results flagged for a closer look

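Zp1 had 1 library far above the others in 3 groups, and in all 3 it was the library numbered 4: 161 CPM in mCherry late 1C, 154 CPM in uninjected early 2C and 220.3 CPM in Duxbl late 2C. Member levels were examined in 45 groups, of which these 3 stood out, and chance flags about 1 in 20 groups. Without the Duxbl late 2C library the log2 difference of Zp1 from mCherry embryos was 1.18 in place of 1.48.

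The Duxbl difference changed from early to late 2C, by the tested difference of effects, for 4 members: 1.42 log2 for Zp1, 1.63 for Zp2, 1.89 for Gdf9 and 2.66 for Bmp15.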

How the results depend on the processing

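The calls of Zp1, Zp2, Gdf9 and Bmp15 in Duxbl against mCherry late 2C, in uninjected late against early 2C and in the change of the Duxbl effect held under every alternative run, and no called member turned direction. Library totals alone moved the median of all genes by -0.21 log2 in Duxbl against mCherry late 2C and by 0.13 in uninjected late against early 2C. Relative to those medians Bmp15 differed by 2.49 and -3.02 and Zp3 by -0.72 and 0.63.

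The calls that changed in these comparisons were those of Zp3. In Duxbl against mCherry late 2C (main value -0.67) Zp3 was called with library totals alone (-0.99), with the replicate block (-0.90), with all 9 groups in 1 fit (-0.67) and without libraries numbered 4 and 5 (-1.09). In uninjected late against early 2C (0.38) Zp3 was called with library totals alone (0.78), median-of-ratios size factors (0.71) and without libraries numbered 4 and 5 (0.80), and leaving out 1 library gave 0.16 to 0.69. The change of the Duxbl effect on Zp3 (-0.41) was called without libraries numbered 4 and 5 (-0.998). The cause was not tested. Zp3 in mCherry late against early 2C was called with library totals alone (0.81), median-of-ratios size factors (0.72) and without libraries numbered 4 and 5 (0.64). Bmp15 in Duxbl late against early 2C was also called with the replicate block (-0.51) and with only the compared groups (-0.50).

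Counts of called genes moved by more than 1.5 times as follows. Duxbl against mCherry called 4 genes at late 1C and 1 with voom weights, with all 9 groups or without libraries numbered 4 and 5. At early 2C it called 89, and 42 with a pseudocount of 5, 141 on the deposited scale, 4 with voom weights, 163 against uninjected embryos and 41 without libraries numbered 4 and 5. Early 2C against late 1C called 844 genes in uninjected, 372 in mCherry and 250 in Duxbl embryos, and 1600, 1025 and 734 with only the compared groups. Without libraries numbered 4 and 5 it called 388 in uninjected and 39 in Duxbl embryos, and in Duxbl embryos voom weights gave 389 and the replicate block 385. With all 9 groups in 1 fit mCherry against uninjected embryos had 40 calls at late 2C and 1 at early 2C, in place of 0. Leaving out 1 library gave 57 to 108 calls in Duxbl against mCherry early 2C (57 without Duxbl library 5) and 3 to 7 at late 1C (7 without Duxbl library 6 or 7). For early 2C against late 1C it gave 524 to 936 in uninjected (524 without early 2C library 4), 194 to 397 in mCherry (194 without early 2C library 5, 245 without late 1C library 6) and 100 to 316 in Duxbl embryos, where each of the 4 late 1C libraries and early 2C libraries 4 and 5 moved it to 100 to 153. For the change of the Duxbl effect from late 1C to early 2C (1 gene called) it gave 0 to 5, and for the change of the mCherry effect from early to late 2C (0 called) 0 to 3.

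The replicate block changed no other member call. The count tests planned for unscaled counts were not run, since the values are scaled. Depth cannot be read exactly from scaled values, so no counting interval was given.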
